A study of Mus musculus with 6 samples.

Results

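The actin family genes Acta1, Acta2, Actb, Actc1, Actg1 and Actg2 were examined together with Dstn and Vil1, whose proteins bind actin filaments, in single cells of the mouse small intestine. The 8 genes were taken by symbol from the 32285 features of the count tables, and all 8 are annotated there. Acta1 and Dstn were selected on their difference between the genotypes in earlier results of the same libraries, so their values in that comparison are a description without a test. The other 6 genes joined by family name or function, though they and the gene lists below were chosen with earlier results of these libraries known. Their tests and counts between the genotypes are therefore not independent support.

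The data are 6 droplet-based libraries of small intestinal mucosa, 1 per animal, from 3 IE-HuR-/- mice and 3 control littermates. IE-HuR-/- mice carried HuR fl/fl alleles and villin-Cre, a recombinase driven by the promoter of Vil1 and therefore active in the intestinal epithelium, and the controls carried the same HuR fl/fl alleles without Cre (given as wild-type in their labels). The mice had a C57BL/6 background, were between 6 and 8 weeks old and were matched for age and gender. The methods name food deprivation before experiments, whereas the labels name normal feeding and drinking. Cells came from a villus-rich fraction released with EDTA and a crypt-rich fraction released with TrypLE, which were pooled for each animal.

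A unique molecular identifier (UMI) marks 1 captured RNA molecule. The libraries held 8613 to 15041 barcodes and 59518012 to 91818560 UMIs, and 60431 of 60706 barcodes with at least 200 genes were kept. Classes were set by shares of marker UMIs. The enterocyte gate held 39124 barcodes, the goblet gate 1521, the enteroendocrine gate 278, the tuft gate 168, the crypt progenitor gate 167, the Paneth gate 61 and the T or NK gate 5562. A further 11220 barcodes passed no gate, and 535 passed 2 gates and were left out. The same barcode sequence occurred in more than 1 library for 870 barcodes (1.43%). Elavl1, which encodes HuR, was at 30.5 ± 1.54 CPM (UMIs per 1000000 UMIs of the class sum; SD, n = 3 libraries) in control epithelium and at 31.1 ± 0.352 CPM (SD, n = 3) in IE-HuR-/- epithelium, so its RNA level did not separate the groups and every direction below rests on the labels. The deleted part of the gene is not given in the sources used here, and tags outside it cannot check the deletion.

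Actin is the subunit of the filaments that fill intestinal microvilli and underlie the cell cortex. Actb and Actg1 encode the cytoplasmic beta and gamma actins that most cells use. Acta1 encodes the alpha actin of skeletal muscle, Actc1 that of heart, and Acta2 and Actg2 the actins of smooth muscle. Dstn encodes destrin, which binds actin monomers and severs and depolymerizes filaments, and Vil1 encodes villin, which bundles and severs filaments in the brush border. Transcription of several actin genes depends on serum response factor (SRF), which binds the CArG box, and on cofactors that sense the pool of free actin. HuR is an RNA-binding protein that prefers U-rich and AU-rich stretches of 3′ untranslated regions.

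The CArG box was searched on both strands in the 250 bases before the annotated start, because these genes include known SRF targets. It was present in 378 of 27025 promoters of the RefSeq table (1.40%; build GRCm38.p6). Of the 8 genes, 6 had an entry and 4 of these 6 held a box. Actb and Actg2 had no entry and were not searched, and Acta2 had an entry without a box. Only exact matches of CC, 6 A or T, then GG were counted. The promoters are shown for the 3 detected genes with a box, for Dstn, which was detected and had none, and for Actc1, which had a box and no UMI in any library. Each is 100 bases long, read 5′ to 3′ on the strand of the gene and ending 21 bases before its start, with the CArG box in capitals.
Acta1, chr8:123894796-123894895, minus strand: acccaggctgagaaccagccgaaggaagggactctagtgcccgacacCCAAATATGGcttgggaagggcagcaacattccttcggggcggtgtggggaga
Actg1, chr11:120348516-120348615, minus strand: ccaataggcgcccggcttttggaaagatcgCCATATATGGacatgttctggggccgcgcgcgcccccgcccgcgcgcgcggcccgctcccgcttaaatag
Vil1, chr1:74409264-74409363, plus strand: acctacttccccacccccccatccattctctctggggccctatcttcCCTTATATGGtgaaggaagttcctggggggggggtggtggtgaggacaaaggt
Actc1, chr2:114052896-114052995, minus strand: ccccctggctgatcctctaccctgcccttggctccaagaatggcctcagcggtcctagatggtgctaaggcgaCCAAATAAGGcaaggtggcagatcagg
Dstn, chr2:143915211-143915310, plus strand: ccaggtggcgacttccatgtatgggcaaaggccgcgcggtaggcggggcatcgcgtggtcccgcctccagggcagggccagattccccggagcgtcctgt
The box lay at bases -73 to -64 in both Acta1 and Vil1, at -90 to -81 in Actg1 and at -47 to -38 in Actc1. A match in this window is a description of the letters and not of a bound site.

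The 3′ untranslated regions were searched for the pentamer AUUUA, the core of AU-rich elements (both overlapping and separate matches, transcript strand only). Actb had 1 in 683 bases and Actg1 2 in 700 bases, whereas Acta1 (240 bases), Dstn (1088 bases) and Vil1 (568 bases) had 0. At least 1 was present in 64.7% of 20952 genes. U made up 36.2% of the Actb region, a share that 92.5% of genes did not exceed, against 27.9% in Acta1 and 30.1% in Dstn. The sites of the 2 cytoplasmic actins, whose RNAs moved in opposite directions below, are shown as 25 bases with the pentamer in capitals.
Actb, pentamer at base 186 after the stop codon: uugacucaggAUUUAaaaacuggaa
Actg1, pentamer at base 243: gcauaucuugAUUUAguccuuaguu
Actg1, pentamer at base 572: ucauucuuuaAUUUAuguaagguuu
The coding sequences of the actins are similar, with 86.3% identical bases between Acta1 and Actb and 89.5% between Actb and Actg1 over the last 1000 bases. No run of 90 bases of the Acta1, Acta2, Actc1, Actg2, Dstn or Vil1 transcripts was found in a transcript of another gene, whereas 52.8% of such runs of Actg1 were shared with pseudogenes. None of the shared runs lay in the last 300 bases of Actg1, but 41.2% of the runs in its first 300 bases were shared. The sources differ on whether the kit read the 5′ or the 3′ end, and if it read the 5′ end, reads of Actg1 may have been split or dropped, so its level is uncertain.

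Of the 6 actins, only Actb, Actg1 and Acta1 were detected at more than trace level. Over all libraries Actb (chromosome 5, 142903115 to 142907976) had 3253798 UMIs, Actg1 (chromosome 11, 120345687 to 120348495) had 716067 and Acta1 (chromosome 8, 123891758 to 123894775) had 200931. Acta2 had 56 UMIs, Actg2 had 12 and Actc1 had 0. The smooth muscle actin Acta2 was highest in the fibroblast gate, with 17 of its 56 UMIs, and had 12 UMIs among all enterocytes. Dstn (chromosome 2, 143915331 to 143943324) had 1916410 UMIs and Vil1 (chromosome 1, 74409384 to 74435560) had 640513. Coordinates are those of GENCODE M21 (GRCm38), and UMI counts tag 1 end of each molecule and were not divided by length.

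Acta1 was rare in control enterocytes and abundant in IE-HuR-/- enterocytes. It was at 23.6, 20.7 and 17.5 CPM in control replicates 1 to 3 and at 1365, 1370 and 1321 CPM in IE-HuR-/- replicates 1 to 3. The groups did not overlap, and each IE-HuR-/- library lay within a narrow range. The means were 20.6 ± 3.05 and 1352 ± 27.0 CPM (SD, n = 3 each), a ratio of 65.6, and the fitted log2 difference was 6.23 (standard error, SE, 0.106). Dstn was at 3520, 3110 and 3221 CPM in control and at 8223, 9131 and 8320 CPM in IE-HuR-/- enterocytes. Destrin RNA was thus 2.61 times as high in the second group, without overlap, and its fitted log2 difference was 1.58 (SE 0.0526).

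The cytoplasmic actins moved in opposite directions in enterocytes. Actb was at 9912, 10280 and 10132 CPM in control libraries and at 6050, 6071 and 6141 CPM in IE-HuR-/- libraries. Every IE-HuR-/- library was below every control, and Actb fell by 0.53 in log2 units (SE 0.0442; adjusted p = 1.96e-11, edgeR quasi-likelihood test with Benjamini-Hochberg adjustment over all genes). Actg1 was at 1219, 1154 and 1258 CPM in control and at 2613, 2699 and 2645 CPM in IE-HuR-/- libraries. Its fitted rise was 1.33 in log2 units (SE 0.0439, edgeR adjusted p = 1.45e-20), and its CPM rose 2.19-fold. Fitted differences include TMM scaling and CPM values do not, so they are not equal for any of these genes. Vil1 was at 1670, 1532 and 1633 CPM in control and at 2052, 2080 and 2080 CPM in IE-HuR-/- enterocytes. Villin RNA rose by 0.56 in log2 units (SE 0.0427, edgeR adjusted p = 3.33e-12), less than the other genes that rose. In this comparison 29.9% of 12755 tested genes were called higher and 29.0% lower, so that a call was common. Acta2 had at most 0.07 CPM in any enterocyte sum, and Actc1 and Actg2 had no UMI there. Without TMM scaling the median of all tested genes moved from -0.01 to -0.21 and the calls from 3817 higher and 3696 lower to 1904 and 6288, and Actb, Actg1 and Vil1 kept their direction and call.

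**Figure D1:**
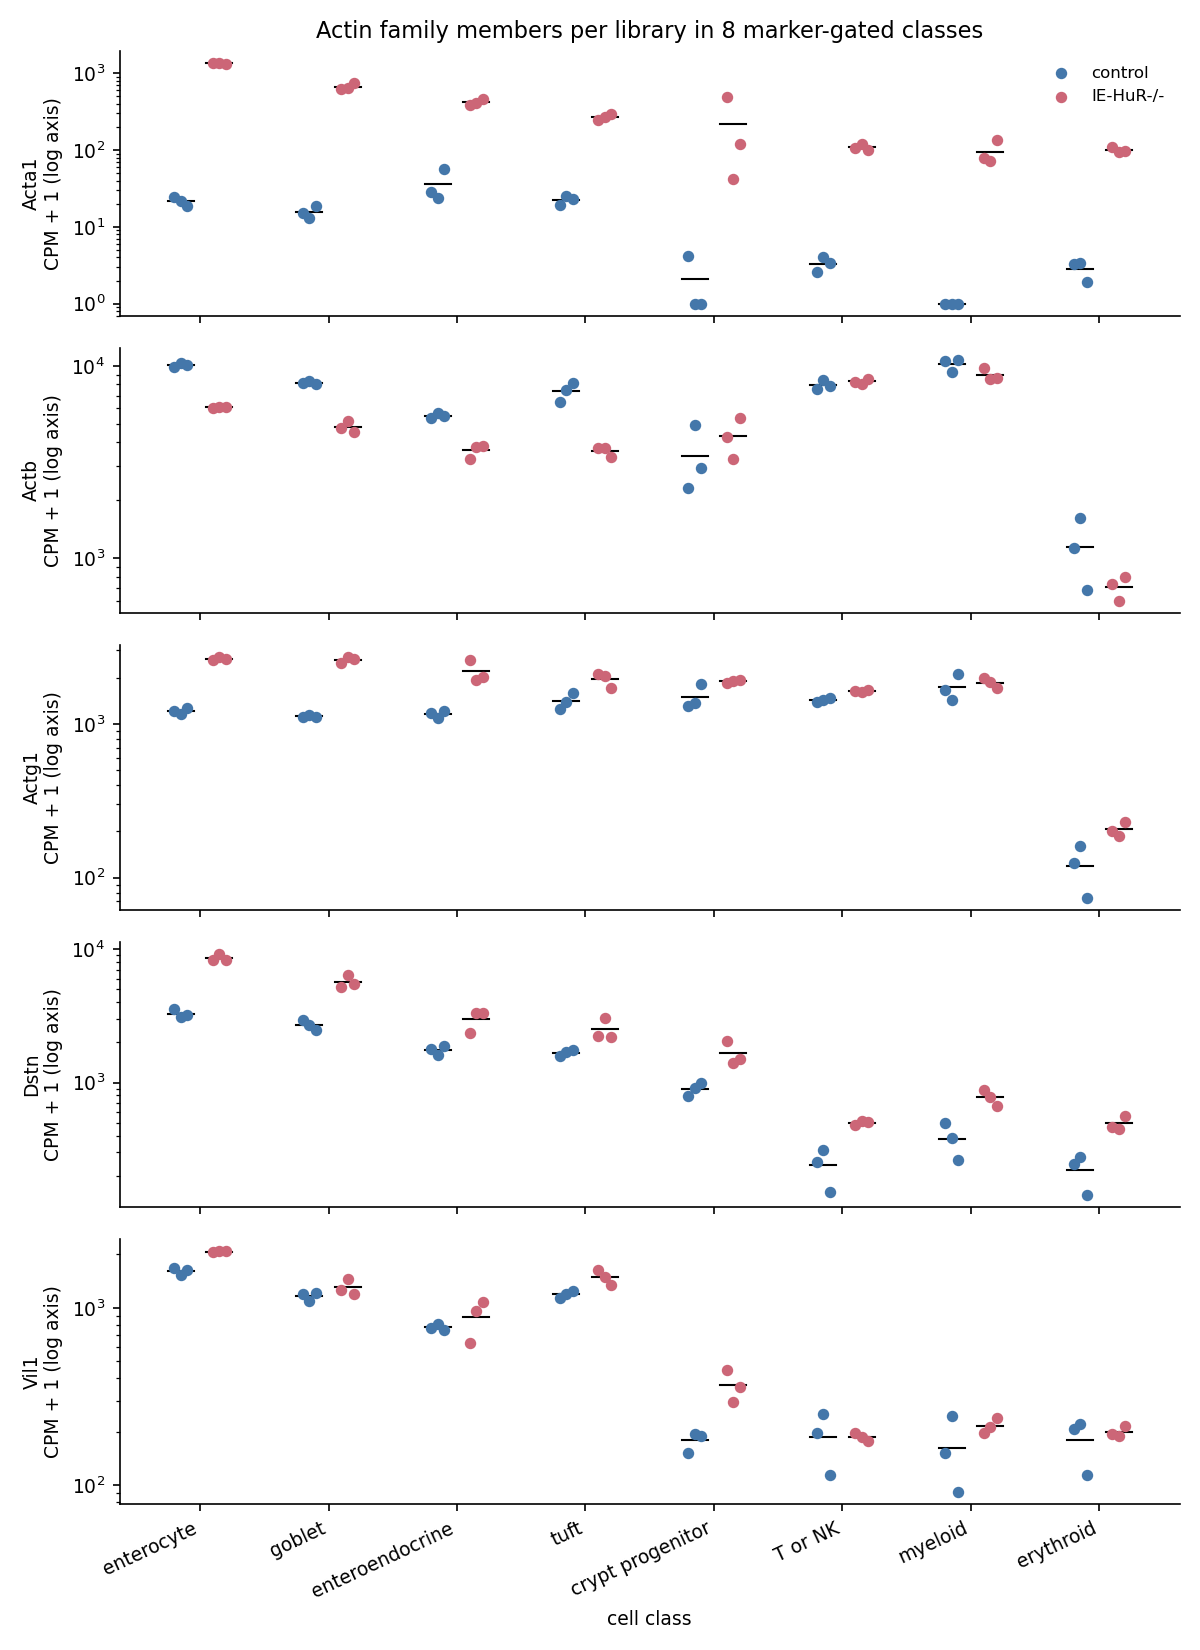
Level of Acta1, Actb, Actg1, Dstn and Vil1 in CPM + 1 (log axis, 1 panel per gene) in 8 marker-gated classes. Each point is 1 library (blue, control; red, IE-HuR-/-) and each bar the mean of 3 libraries. In enterocytes Actb was lower (6087 against 10108 CPM) and the other 4 genes were higher in IE-HuR-/- libraries, whereas Actb overlapped in T or NK cells.

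Goblet cells, the mucus-secreting cells of the epithelium, had the same directions. Acta1 was at 14.3, 12.1 and 17.6 CPM in control and at 616, 642 and 747 CPM in IE-HuR-/- goblet sums, a fitted log2 difference of 5.70 (SE 0.138) given as a description. Actb was at 8152, 8308 and 8046 CPM in control and at 4744, 5168 and 4529 CPM in IE-HuR-/- libraries. It fell by 0.58 in log2 units (SE 0.103, edgeR adjusted p = 1.46e-04), without overlap. Actg1 was at 1111, 1132 and 1112 CPM in control and at 2480, 2717 and 2628 CPM in IE-HuR-/- libraries, a rise of 1.41 (SE 0.0997, edgeR adjusted p = 2.99e-10). Dstn was at 2912, 2695 and 2452 against 5221, 6373 and 5503 CPM. Enterocyte-marker UMIs made up 4.96% to 5.12% of the control and 3.28% to 4.19% of the IE-HuR-/- goblet sums, against 8.16% to 8.89% of the enterocyte sums. Per 1000 of these marker UMIs, Acta1 was at 16.4, 15.3 and 22.8 UMIs in IE-HuR-/- goblet sums. The part of RNA from outside goblet cells was not tested, for Acta1 and Dstn or for any other goblet value given here and below. Vil1 overlapped in CPM, at 1196, 1093 and 1207 against 1260, 1459 and 1195 CPM. Its fitted log2 difference was 0.35 (SE 0.101, edgeR adjusted p = 0.0110), a call that was lost without TMM scaling (0.16, adjusted p = 0.24) and without control replicate 2 (0.33, adjusted p = 0.0519). Over all 9351 tested genes in goblet cells 15.2% were called higher and 13.1% lower, with 1425 and 1228 calls against 794 and 2459 without TMM scaling. The genotype effect in enterocytes minus that in goblet cells was 0.49 for Acta1 (SE 0.163) and 0.26 for Dstn (SE 0.108), both given without a test. It was -0.00157 for Actb (SE 0.108, edgeR adjusted p = 0.999), -0.12 for Actg1 (SE 0.101, edgeR adjusted p = 0.595) and 0.17 for Vil1 (SE 0.101, edgeR adjusted p = 0.417), where 5.71% of 12412 genes were called. No difference of these 3 genes passed the test, apart from Vil1 without IE-HuR-/- replicate 2 (0.29, adjusted p = 0.0483).

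Enteroendocrine cells, which release gut hormones, and tuft cells, which are chemosensory, had 15 to 79 barcodes per library and were described without a test. Acta1 was at 27.3, 22.5 and 55.4 CPM in control and at 388, 407 and 463 CPM in IE-HuR-/- enteroendocrine sums. In tuft sums it was at 18.2, 24.5 and 21.8 against 243, 270 and 295 CPM. In neither class did the control level lie below that of enterocytes on average (35.1 ± 17.8 and 21.5 ± 3.18 CPM), whereas the IE-HuR-/- level was lower. Actb was at 5505 ± 167 against 3631 ± 294 CPM in enteroendocrine and at 7373 ± 823 against 3603 ± 212 CPM in tuft cells (SD, n = 3). Actg1 and Dstn were higher in every IE-HuR-/- library of both classes. Vil1 overlapped in enteroendocrine cells and not in tuft cells (1193 ± 56.8 against 1494 ± 141 CPM). Enterocyte-marker UMIs made up 1.51% to 3.78% of the enteroendocrine and 3.45% to 4.98% of the tuft sums. The part of RNA from outside these cells in the values of both classes was not tested.

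The crypt progenitor gate, set by markers of dividing cells and of intestinal stem cells, did not have the fall in Actb. Actb was at 2318, 4937 and 2956 CPM in control and at 4247, 3260 and 5364 CPM in IE-HuR-/- sums, which overlapped. Its log2 difference was 0.29 (SE 0.310, edgeR adjusted p = 0.949), and a difference from the enterocyte value was not tested. Actg1 was at 1307, 1372 and 1817 against 1852, 1903 and 1923 CPM (log2 difference 0.29, edgeR adjusted p = 0.908), and Vil1 at 151, 194 and 189 against 447, 294 and 356 CPM (1.00, edgeR adjusted p = 0.253). Acta1 rested on 1 UMI in the 60 control barcodes and was at 494, 41.5 and 120 CPM in the IE-HuR-/- sums. Enterocyte-marker UMIs moved with it, at 1.69%, 0.78% and 0.90% of these 3 sums against 0.17% to 0.63% in control, and their part in the result was not tested. Control Vil1 in this gate was at 178 ± 23.3 CPM, against 187 ± 69.2 CPM in T or NK cells and 1611 ± 71.3 CPM in enterocytes. Whether all barcodes of the gate were epithelial was not tested, so the missing fall in Actb is a value of the gate. With 14 to 42 barcodes per library, 0.0416% of 4803 genes were called in either direction (edgeR, 2 genes, and 291 at an unadjusted p under 0.05, against 16 called by DESeq2). The Paneth gate held 8 to 14 barcodes per library with a median of 880 UMIs, and Acta1 rested there on 2 control and 5 IE-HuR-/- UMIs.

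T and NK cells lie outside the villin-Cre lineage, and served as the class without the deletion. Actb was at 7586, 8455 and 7825 CPM in control and at 8221, 8076 and 8561 CPM in IE-HuR-/- T or NK cells. The groups overlapped, and the log2 difference was 0.04 (SE 0.0522, edgeR adjusted p = 0.774). Actg1 was at 1383, 1437 and 1473 against 1628, 1617 and 1667 CPM, a log2 difference of 0.18 (SE 0.0484, edgeR adjusted p = 0.0448). That call was lost in 10 of 15 alternatives, among them DESeq2 (adjusted p = 0.269, the highest), the replicate block (0.142) and 5 of the 6 fits without 1 library, and the lowest adjusted p was 0.0141 without a filter on low counts. Vil1 was at 187 ± 69.2 against 186 ± 9.77 CPM (SD, n = 3; log2 difference -0.05, edgeR adjusted p = 0.961), and fell only without control replicate 3 (-0.31, adjusted p = 0.0480). That library had the lowest share of enterocyte-marker UMIs in the control T or NK sums (0.45%, against 0.73% and 1.00%). Its part in the Vil1 values was not tested. Among 11091 genes 2.53% were called higher and 1.88% lower.

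Acta1 and Dstn were also higher in the IE-HuR-/- T or NK sums. Acta1 was at 1.55, 3.01 and 2.41 CPM in control and at 106, 121 and 97.9 CPM in IE-HuR-/- libraries, and Dstn was at 252, 313 and 151 against 480, 515 and 503 CPM. These levels were far below those of enterocytes of the same libraries. Enterocyte markers were present in these sums too, at 0.45% to 1.00% of UMIs in control and 0.55% to 0.58% in IE-HuR-/- libraries, against 8.16% to 8.89% in enterocytes, with all 16 detected. Relative to them, Acta1 was at 18.6, 21.8 and 16.9 UMIs per 1000 enterocyte-marker UMIs in IE-HuR-/- T or NK cells and at 16.03, 15.4 and 15.2 in IE-HuR-/- enterocytes. Erythroid cells, which come from blood, had 18.3, 16.8 and 15.9, and barcodes without a gate 13.9, 15.2 and 13.4. The ratio was thus of similar size in classes whose Acta1 CPM lay far apart. Goblet cells were at 16.4, 15.3 and 22.8 and enteroendocrine cells at 25.8, 11.9 and 12.7. Tuft cells were lower, at 6.43, 7.83 and 6.13. Control libraries had 0.20 to 0.29 in enterocytes and 0.21 to 0.53 in T or NK cells. Dstn followed with 84.3 to 93.0 in T or NK against 96.0 to 103 in enterocytes of IE-HuR-/- libraries. Vil1 was at 25.1 to 26.9 in control and 30.3 to 34.2 in IE-HuR-/- T or NK cells, against 18.7 to 20.5 and 23.4 to 24.1 in enterocytes. The part of RNA from outside these cells in their Acta1, Dstn and Vil1 was not tested further. The same holds for every other T or NK value given above and below.

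**Figure D2:**
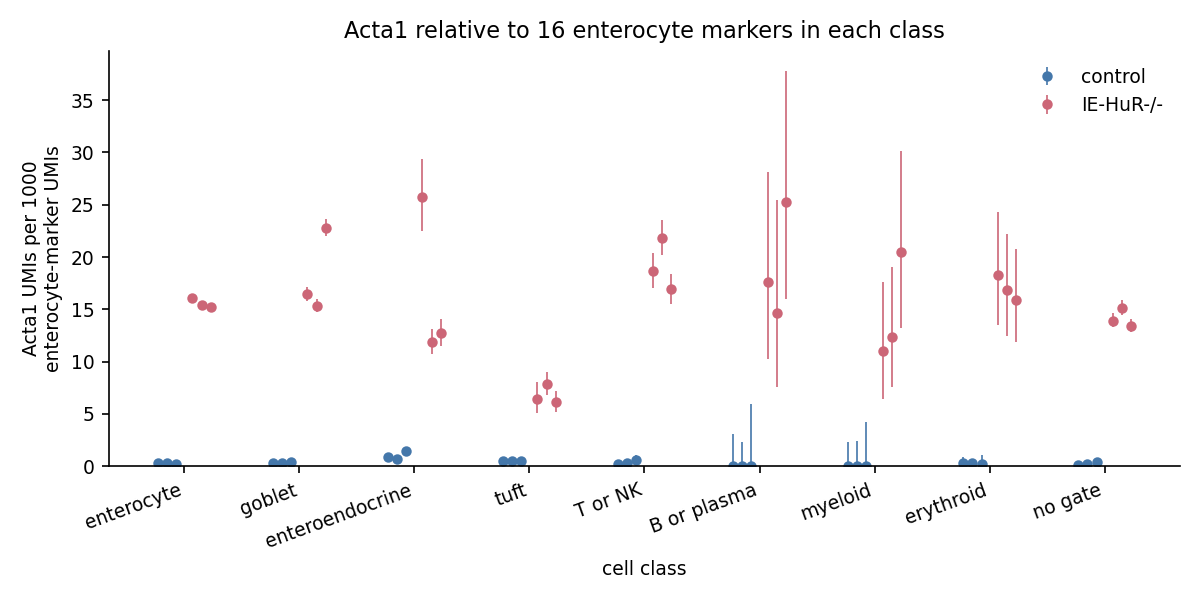
Acta1 UMIs per 1000 UMIs of 16 enterocyte markers in 8 classes and in barcodes without a gate. Points are libraries (blue, control; red, IE-HuR-/-) and vertical lines are 95% exact Poisson intervals of the Acta1 count, which cover counting error only. In IE-HuR-/- libraries T or NK cells (16.9 to 21.8) lay above enterocytes (15.2 to 16.03), and the range of erythroid cells (15.9 to 18.3) overlapped that of enterocytes.

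The genotype effect was compared between enterocytes and T or NK cells by an interaction term with library in the model. The log2 effect in enterocytes minus that in T or NK cells was -0.59 for Actb (SE 0.137, edgeR adjusted p = 0.0156), and 1.14 for Actg1 (SE 0.131, edgeR adjusted p = 2.87e-04). The Actb call was lost without control replicate 1 or without any 1 IE-HuR-/- library (adjusted p between 0.102 and 0.13), with the difference between -0.60 and -0.56, and the lowest adjusted p was 1.66e-05 without TMM scaling. The Actg1 call was kept in all 8 alternatives. The difference of Vil1 was 0.52 (edgeR adjusted p = 0.233) and was called without control replicate 3 alone (0.89, adjusted p = 2.71e-04). Those of Acta1 (0.71, SE 0.28) and Dstn (0.47, SE 0.257) are given without a test. In all, 14.4% of 14047 genes were called.

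Isoform proportions were taken as the share of each gene in the UMIs of the 6 actins. These actins together made up 1.13% ± 0.0162 of the UMIs of control enterocytes and 1.01% ± 0.00579 of those of IE-HuR-/- enterocytes (SD, n = 3). In control enterocytes Actb was 89.1% ± 0.525, Actg1 10.7% ± 0.526 and Acta1 0.182% ± 0.0291 of actin UMIs. In IE-HuR-/- enterocytes Actb was 60.3% ± 0.446, Actg1 26.3% ± 0.296 and Acta1 13.4% ± 0.288. The summed actin share thus differed far less than its makeup. In IE-HuR-/- libraries the Acta1 share was next highest in erythroid (9.90% ± 1.10), goblet (8.28% ± 1.03), enteroendocrine (6.72% ± 0.596) and tuft cells (4.65% ± 0.762), and was 1.08% ± 0.142 in T or NK cells and 0.876% ± 0.355 in myeloid cells. The IE-HuR-/- erythroid sums held few actin UMIs in all (0.101% ± 0.0124 of all UMIs). The part of RNA from outside erythroid cells in their actin shares, here and below, was not tested.

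**Figure D3:**
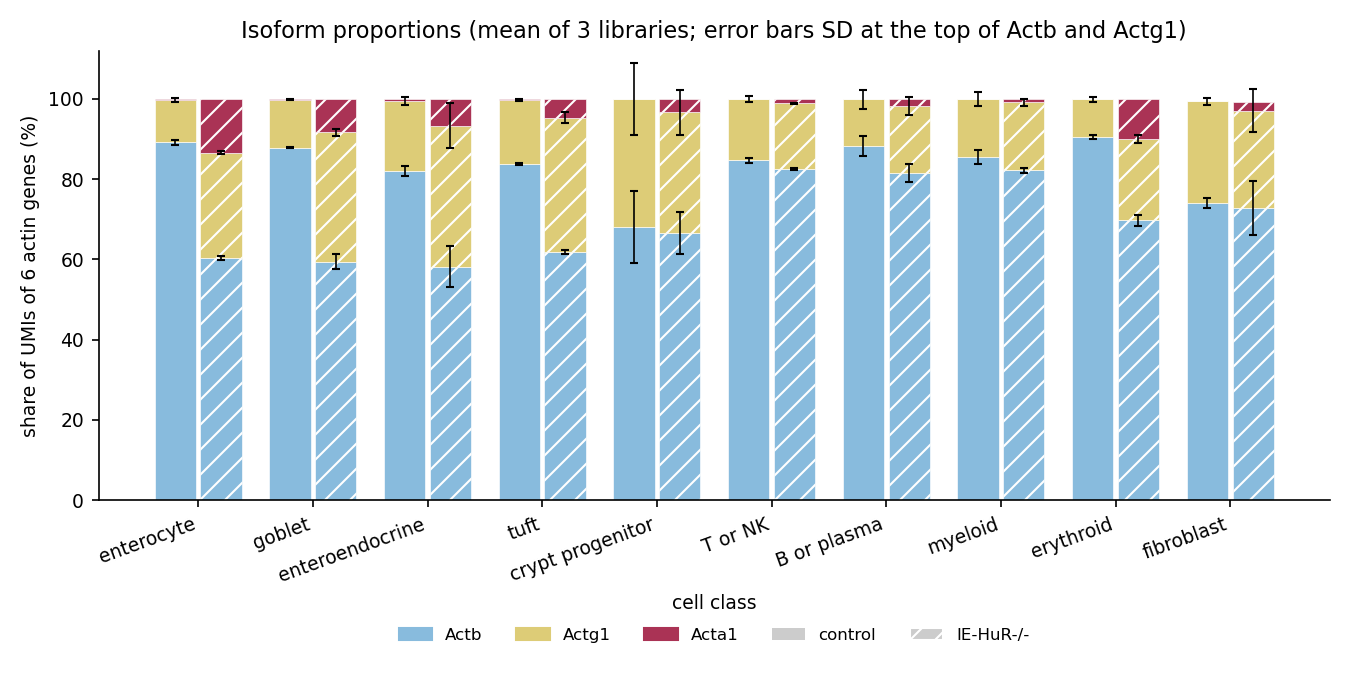
Share of Actb, Actg1 and Acta1 in the UMIs of the 6 actin genes, in percent, for 10 classes (plain bars, control; hatched bars, IE-HuR-/-; means of 3 libraries, error bars SD of Actb and Actg1). Acta1 took 13.4% in IE-HuR-/- enterocytes against 0.182% in control, and crypt progenitors had the lowest Actb share of the control classes (68.0%).

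The Actb share of Actb plus Actg1 UMIs gives the balance of the cytoplasmic pair without Acta1. It was 89.0%, 89.9% and 89.0% in control and 69.8%, 69.2% and 69.9% in IE-HuR-/- enterocytes, a difference of -19.7 percentage points (p = 0.1 by exact permutation of the labels, two-sided, which is the lowest value that 3 libraries a group can give). Control goblet cells were at 87.96% ± 0.0845 and IE-HuR-/- goblet cells at 64.8% ± 1.35. Crypt progenitors were at 68.0% ± 8.90 and 68.8% ± 5.28, and T or NK cells at 84.7% ± 0.671 and 83.5% ± 0.194. Within libraries, the share was compared between classes and averaged over both genotypes. In enterocytes it was higher than in goblet cells by 3.08 points and than in enteroendocrine cells by 6.995 points in 6 of 6 libraries. It was lower than in erythroid cells by 4.48 points in 6 of 6 libraries. Each of these 3 differences had a two-sided exact sign-flip p of 0.03125, the smallest possible with 6 libraries. After Benjamini-Hochberg adjustment over 6 classes it was 0.0625, and so failed the correction. By genotype, enterocytes differed from goblet cells by 1.35 points in control and 4.82 points in IE-HuR-/- libraries. In the same order the values were 6.75 and 7.24 points for enteroendocrine cells and -1.23 and -7.73 points for erythroid cells. Enterocytes were above T or NK cells by 4.57 points in control libraries and below them by 13.8 points in IE-HuR-/- libraries. Myeloid cells gave 3.78 and -13.3 points and B or plasma cells 1.01 and -13.5 points.

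Most barcodes with Acta1 were enterocytes in both genotypes, and so were most barcodes with or without it. The enterocyte gate held 23575 control and 15549 IE-HuR-/- barcodes, and the goblet gate 872 and 649. There were 2523 and 3039 T or NK barcodes and 5444 and 5776 without a gate, so class size enters the counts that follow. Of 1347 control barcodes with an Acta1 UMI, 1090 (80.9%) were enterocytes, 79 (5.86%) goblet cells, 41 (3.04%) enteroendocrine cells, 27 (2.00%) T or NK cells and 73 (5.42%) without a gate. Of 14619 such barcodes in IE-HuR-/- libraries, 10162 (69.5%) were enterocytes, 1068 (7.31%) T or NK cells and 2494 (17.1%) without a gate. By UMIs the enterocyte part was 86.2% of 4131 in control and 90.7% of 196756 in IE-HuR-/- libraries. T or NK barcodes with Acta1 held 1670 of these UMIs and barcodes without a gate 5309, few for each barcode, whereas 355 goblet barcodes held 7644.

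The share of enterocyte barcodes with at least 1 Acta1 UMI was 4.67% ± 0.716 in control and 65.4% ± 1.11 in IE-HuR-/- libraries (SD, n = 3), at a median of 1457 UMIs per barcode. In T or NK cells it was 1.07% ± 0.226 and 35.1% ± 0.517 at a median of 4790 UMIs. At 1000 UMIs per barcode, to which each barcode was thinned while shallower ones were left out, enterocytes were at 1.60% ± 0.0471 and 51.4% ± 0.844, and T or NK cells at 0.164% ± 0.193 and 9.62% ± 1.40. At equal depth the enterocyte share thus stayed above that of T or NK cells in both genotypes. Goblet cells thinned in the same way were at 0.452% ± 0.400 and 23.4% ± 0.387, and enteroendocrine cells at 2.38% ± 2.28 and 24.2% ± 6.04. A total of 14401 control and 10361 IE-HuR-/- enterocyte barcodes, and 2520 and 3025 T or NK barcodes, entered at that depth. B or plasma, myeloid and fibroblast gates had 0 control UMIs of Acta1 (96, 102 and 66 barcodes), and their IE-HuR-/- means of 98.4, 94.8 and 91.2 CPM were at least 3.54-fold, 7.09-fold and 5.41-fold higher than a floor of 3 counts per control library.

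Enterocytes with at least 5000 UMIs show how Acta1 was spread among cells. In control libraries 11.4%, 11.6% and 11.7% of these barcodes had a UMI of Acta1, and in IE-HuR-/- libraries 87.8%, 87.4% and 88.5%. Thinned to 5000 UMIs, the shares were 5.08%, 5.56% and 4.82% against 74.6%, 74.6% and 75.6%. In control cells Acta1 was concentrated in few barcodes. The top 1% of barcodes held 57.5%, 47.0% and 46.2% of the Acta1 UMIs, whereas in IE-HuR-/- cells the same fraction held 11.6%, 12.8% and 11.6%. The highest control barcode had 167 Acta1 UMIs and the highest IE-HuR-/- barcode 969. At 500 CPM or more were 50 control barcodes (0.733%), spread over the libraries as 16, 21 and 13, and 2653 IE-HuR-/- barcodes (53.0%). In control, these 50 barcodes held 39.2% of the Acta1 UMIs of deep enterocytes, and had 5064 CPM of Dstn against 3214 in the rest, 11493 against 10205 of Actb and 1649 against 1226 of Actg1. IE-HuR-/- cells still varied widely, with a lower quartile of 126 to 131 CPM, medians of 622, 574 and 552 CPM and an upper quartile of 1669 to 1843 CPM.

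**Figure D4:**
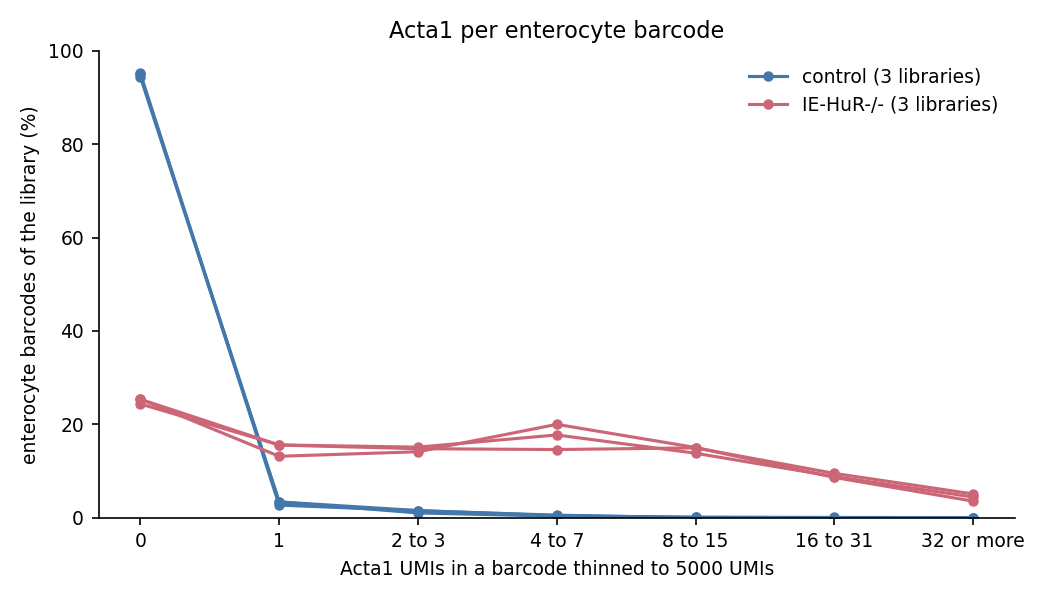
Share of enterocyte barcodes of at least 5000 UMIs (y axis, percent of the library) by their number of Acta1 UMIs after thinning to 5000 UMIs (x axis), with 1 line per library (blue, control; red, IE-HuR-/-). Control libraries had 94.4% to 95.2% of barcodes at 0, and IE-HuR-/- libraries 24.4% to 25.4%, with 3.57% to 5.11% at 32 or more.

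In single IE-HuR-/- enterocytes Acta1 went with Dstn and Actg1 more than with Actb. Over barcodes thinned to 5000 UMIs, the correlation of Acta1 with Dstn was 0.55 to 0.56, with Actg1 0.42 to 0.44, with Actb 0.10 to 0.13 and with Vil1 0.09 to 0.11 (ranges over 3 libraries of 1654 to 1685 barcodes). In control enterocytes Acta1 gave at most 0.10 with any of these, at far fewer counts. Actb and Actg1 correlated at 0.41 to 0.45 in both genotypes. Cells of 1 library are not independent replicates, so these are descriptions. The cells also differed in position along the villus, whose part in these correlations was not tested.

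Position along the villus was approximated within each library by ranking enterocytes of at least 5000 UMIs, thinned to 5000, on villus-tip markers (Ada, Nt5e, Slc28a2, Creb3l3, Klf4, Krt20 and Pmp22), and cutting them into 3 equal tiers. Acta1 was at 17.0, 14.1 and 10.9 CPM in the bottom tier and at 29.1, 27.7 and 17.5 CPM in the top tier of control libraries. In IE-HuR-/- libraries it was at 459, 457 and 428 CPM in the bottom tier and at 2093, 1973 and 1995 CPM in the top tier. Acta1 was thus higher in the top than in the bottom tier in both genotypes, but in control libraries it was the same in the middle and top tiers (24.7 ± 1.66 and 24.8 ± 6.29 CPM; SD, n = 3), whereas in IE-HuR-/- libraries it went from 1562 ± 81.7 to 2020 ± 64.3 CPM. The top minus bottom difference was 1.17 on the log2 scale in control (SE 0.0591, edgeR adjusted p = 4.17e-29) and 2.61 in IE-HuR-/- libraries (SE 0.0353, edgeR adjusted p = 8.67e-64). These 2 differed by 1.43 (SE 0.0697), a description without a test, since Acta1 was selected on its genotype difference. With 2 tiers in place of 3 the differences were 1.06 in control and 1.85 in IE-HuR-/- libraries, 0.79 apart. The 50 control barcodes of at least 500 CPM did not stand nearer the tip, with 6870 CPM of tip markers against 7848 in the rest, while the 2653 IE-HuR-/- barcodes had 13399 against 7209 CPM.

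Dstn rose towards the tip from 2656 ± 175 to 4131 ± 144 CPM in control and from 4513 ± 184 to 12606 ± 423 CPM in IE-HuR-/- libraries (SD, n = 3). Its log2 differences were 0.98 and 1.91, and they differed by 0.93 (SE 0.0447, given without a test for the same reason). Actg1 rose from 869 ± 22.2 to 1807 ± 74.0 CPM and from 1500 ± 14.9 to 4083 ± 16.3 CPM, by 1.40 and 1.88, which differed by 0.48 (SE 0.0443, edgeR adjusted p = 2.74e-14). Actb rose from 8595 ± 280 to 11817 ± 234 CPM and from 5286 ± 68.2 to 7059 ± 55.9 CPM. Its log2 differences of 0.80 and 0.85 were 0.05 apart (SE 0.0440, edgeR adjusted p = 0.464), which was called only without IE-HuR-/- replicate 2 (0.15) or 3 (0.17). Actb was lower in every IE-HuR-/- library than in every control library in each tier. Vil1 was highest in the middle tier, at 1548, 1813 and 1575 CPM from bottom to top in control and 2047, 2437 and 1869 CPM in IE-HuR-/- libraries. Its fitted tip differences of 0.37 and 0.30 depended on the scaling, and without TMM were 0.05 and -0.10. Of 11193 genes 38.0% were called higher in the top tier in control and 35.1% in IE-HuR-/- libraries, and 28.0% differed between them. Without TMM scaling the median gene moved to -0.35 in control and -0.54 in IE-HuR-/- libraries, and Acta1, Actb, Actg1 and Dstn kept their direction in both genotypes. Their rises were smaller, however, at 0.48 in control and 0.45 in IE-HuR-/- libraries for Actb. In the same order they were 0.85 and 2.20 for Acta1, 1.08 and 1.47 for Actg1, and 0.66 and 1.51 for Dstn. Without IE-HuR-/- replicate 2 or 3 the genes that differed split into 1850 higher and 968 lower or 1796 and 938, against 1187 and 1947 with all libraries.

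**Figure D5:**
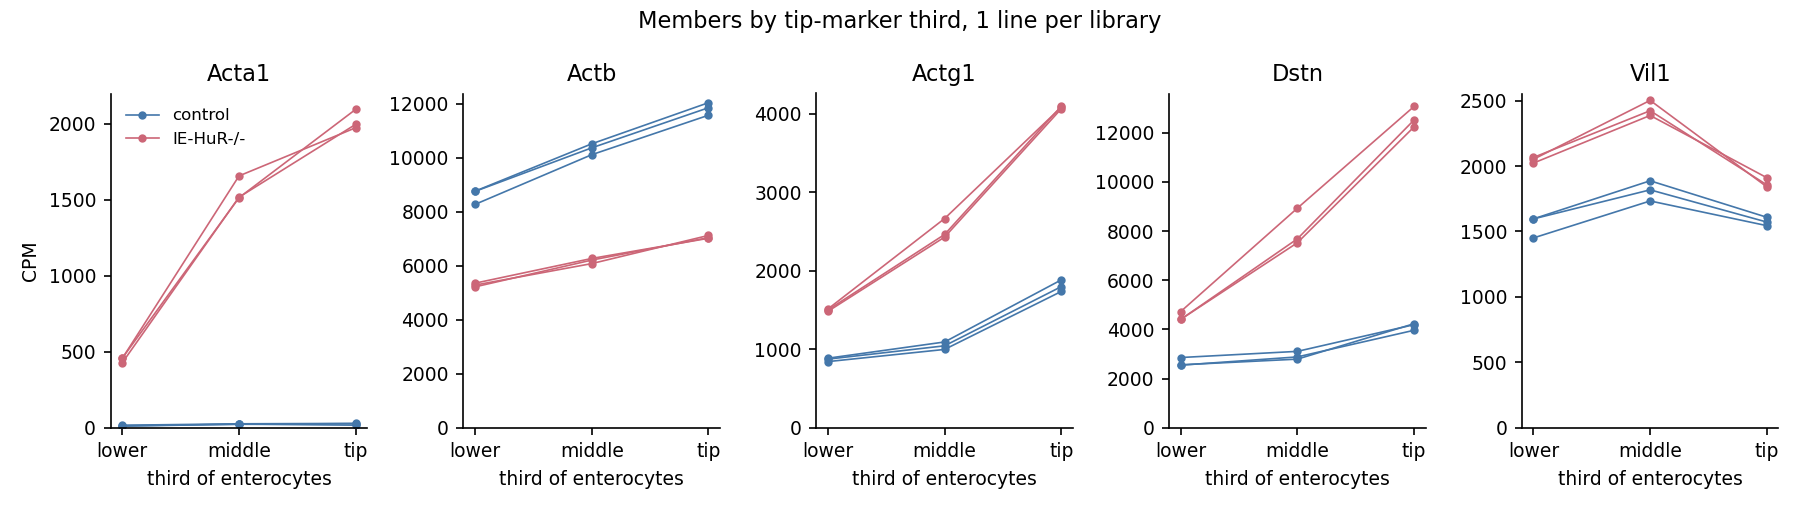
Level in CPM of Acta1, Actb, Actg1, Dstn and Vil1 (1 panel each, axes from 0) in the lower, middle and tip tiers of enterocytes ranked by tip markers, with 1 line per library (blue, control; red, IE-HuR-/-). Acta1 in IE-HuR-/- libraries went from 448 CPM to 2020 CPM and Dstn from 4513 to 12606 CPM, whereas Vil1 peaked in the middle tier.

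Ileal genes also differed between the genotypes, as 67.1% ± 3.62 of deep control enterocytes and 31.2% ± 0.333 of deep IE-HuR-/- enterocytes had no UMI of Fabp6 or Slc10a2, which bind and import bile acids in the ileum. In barcodes without either, Acta1 was at 17.3 ± 1.68 against 1228 ± 87.4 CPM, Actb at 9862 ± 242 against 5966 ± 107, Actg1 at 1202 ± 62.0 against 2515 ± 95.2, Dstn at 3248 ± 129 against 8423 ± 293 and Vil1 at 1568 ± 71.8 against 1932 ± 4.96 (SD, n = 3). The differences were close to those over all enterocytes, with fitted log2 values of 6.32 for Acta1, -0.55 for Actb, 1.24 for Actg1, 1.55 for Dstn and 0.48 for Vil1. Since Fabp6 and Slc10a2 themselves differed between the genotypes, this choice of barcodes cannot match the groups for gut region. The part of gut region in the differences was not tested. In barcodes with at least 10 UMIs of these genes Acta1 was at 44.6 ± 30.6 and 2198 ± 114 CPM.

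Genes that build, turn over and anchor actin filaments mostly rose with Actg1 and Dstn in enterocytes, where 29.9% of all genes were called higher. The lists were chosen with earlier results of these libraries known. Of 18 tested genes of the brush border bundle, motors and links, 14 rose and 0 fell (11 and 4 without TMM scaling), with a median log2 difference of 0.32. These included Baiap2l1, an organizer of microvillar actin (88.9 ± 3.96 to 133 ± 3.65 CPM), the bundling proteins Espn (463 to 593 CPM) and Pls1 (1568 to 1879 CPM), and Ezr, which links filaments to the membrane (1388 to 1756 CPM). Of 19 filament turnover genes 14 rose and 2 fell (11 and 3 without TMM scaling), with a median of 0.41. The monomer-binding thymosins Tmsb10 (175 to 337 CPM, log2 difference 1.15) and Tmsb4x (1366 to 2254 CPM, 0.92), the destrin partner Wdr1 (138 to 193 CPM) and the capping protein Capzb (207 to 278 CPM) rose. The 2 that fell, named after their values were seen, were Pfn1, profilin, which loads monomers onto growing ends (1189 ± 39.8 to 688 ± 27.8 CPM), and Cap1, which recycles monomers (93.9 ± 3.07 to 53.8 ± 0.818 CPM). Goblet cells had 11 higher and 2 lower of 17 turnover genes, against 15.2% and 13.1% of all genes, and Pfn1 fell there too, from 982 ± 24.4 to 549 ± 38.5 CPM.

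Of 18 genes of nucleation and branching 14 rose in enterocytes and 0 fell (10 and 2 without TMM scaling; median 0.44), among them the Arp2/3 complex subunits Actr3 (357 to 473 CPM), Arpc1b (236 to 313 CPM) and Arpc5 (315 to 397 CPM), and the formin Daam1 (74.5 to 114 CPM). Of 20 genes of crosslinking and contractility 12 rose and 0 fell (10 and 1 without TMM scaling; median 0.51), with the myosin light chain Myl12a from 98.5 to 159 CPM, the tropomyosin Tpm1 from 403 to 598 CPM and Coro1c, a coronin, from 122 to 163 CPM. Folding and modification genes were divided, since 8 of 16 rose and 1 fell, but 3 rose and 7 fell without TMM scaling, with a median that turned from 0.10 to -0.10. The list of SRF, its cofactors and targets had 11 of 15 higher and 0 lower (11 and 2 without TMM scaling; median 0.68). It included the immediate-early genes Egr1 (20.9 ± 1.19 to 57.0 ± 0.804 CPM, log2 difference 1.65), Junb (184 to 281 CPM) and Fos (285 to 304 CPM), and Zyx, a focal adhesion protein (log2 difference 0.67). The medians stand beside one of -0.01 over all tested genes.

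In goblet cells, where 15.2% of all genes were called higher and 13.1% lower, the brush border list had 7 higher and 2 lower of 18 (2 and 3 without TMM scaling), nucleation 11 and 0 of 16 (6 and 0), crosslinking 11 and 1 of 17 (8 and 2), folding 2 and 0 of 16 (0 and 1) and the SRF list 10 and 0 of 14 (9 and 0). The folding share was thus no higher than that of all genes, and its median log2 difference turned from 0.05 to -0.14 without TMM scaling. Of the brush border list Baiap2l1 (97.6 ± 3.24 to 128 ± 13.7 CPM), Espn (338 ± 11.2 to 408 ± 30.0 CPM) and Ezr (1115 ± 25.2 to 1340 ± 158 CPM) rose in goblet cells, and Pdzk1, a scaffold of brush border transporters, fell from 185 ± 23.2 to 120 ± 10.5 CPM. Tmsb10 (553 ± 46.6 to 989 ± 164 CPM) and Egr1 (48.1 ± 2.04 to 147 ± 7.86 CPM) rose as in enterocytes. In T or NK cells, with 14 to 18 tested genes in each of the 6 lists, 4 genes rose and 2 fell in all, a share near the 2.53% and 1.88% of all genes, so the lists did not stand out there. The bundling protein Lcp1 rose from 556 ± 56.2 to 701 ± 27.3 CPM and the nonmuscle myosin Myh9 from 682 ± 55.6 to 799 ± 27.8 CPM, and Myo6 and Fos fell. No gene of the lists was called in crypt progenitors (edgeR; 2 genes called of 4803).

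Genes with the Acta1 pattern over the 66 sums of 11 classes in 6 libraries were sought by Pearson's r on log2(CPM + 1), among 10712 genes with a mean of at least 5 CPM. The highest were Duox2 (0.80), Reg3b (0.76), Saa1 (0.74), Duoxa2 and Slc10a2 (0.70 each), Lpin2, Reg3g, Fabp6, Muc4 and Slc5a8 (0.64 to 0.67). In enterocytes Duox2, an epithelial oxidase, was at 57.8 ± 1.88 against 373 ± 11.7 CPM and Reg3b, an antimicrobial lectin, at 2264 ± 238 against 10177 ± 406 CPM. Among the other members r was 0.60 for Dstn, 0.43 for Vil1, 0.36 for Actg1 and -0.05 for Actb. The sums of 1 library and of 1 class are not independent, and these are descriptions.

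Acta1 stood apart from the other muscle genes of these cells. Of 15 skeletal muscle markers 5 (Myh1, Myh2, Myh4, Myl1 and Myog) had no UMI in enterocytes, and the summed list was at 2.84 to 3.79 CPM in control and 2.97 to 3.84 CPM in IE-HuR-/- libraries, mostly from Mylpf (2.87 ± 0.306 against 3.09 ± 0.618 CPM). Creatine kinase Ckm was at 0.0591 and 0.0538 CPM, from 11 and 7 UMIs. The smooth muscle list was at 197 to 219 against 168 to 179 CPM, almost all of it Mylk, with Lmod1 at 0 UMIs. The cardiac list was at 1.252 to 1.81 against 3.17 to 3.401 CPM, mostly from Myl7 (1.20 ± 0.162 against 3.05 ± 0.0627 CPM), with Myh6 at 0 UMIs. None of the 3 lists came near the 1352 CPM of Acta1 in IE-HuR-/- enterocytes. The protein-coding neighbours of Acta1 on chromosome 8 differed far less. The nearest, Nup133, was at 1.10 ± 0.0569 against 0.760 ± 0.110 CPM, and the most abundant of the 10 nearest, Rhou, at 101 ± 2.36 against 81.6 ± 1.28 CPM.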

How the data were processed

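Mucosa of the small intestine from 3 control and 3 IE-HuR-/- mice was sequenced as 6 single-cell libraries. The authors deposited unnormalized UMI counts per gene and barcode from Cell Ranger (version 6.1.2 in the file headers, build mm10 per the labels). The methods name another version, a human reference and a 3′ kit, and the labels a 5′ kit.

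Barcodes with at least 200 genes were kept. A class gate required a share of marker UMIs above a cut that was set after the data had been seen. The lowest and highest share of barcodes within 1.25-fold of a cut was 1.14% and 24.3% over the 11 gates (12.0% for enterocytes). No doublet caller was run, and barcodes in 2 gates (0.885%) were left out. Counts were summed per library and class (Python: numpy 2.4.6, pandas 2.3.3, scipy 1.17.1, matplotlib 3.10.9) and fitted over all genes with edgeR 4.0.16 in R 4.3.3 (TMM scaling, minimum count 10, minimum total 15, robust quasi-likelihood, call at a Benjamini-Hochberg adjusted p under 0.05), with DESeq2 1.42.0 as the alternative. The fits within classes and the enterocyte against T or NK contrast were run on simulated counts. The villus tier fits and the goblet contrast were not. Villus tiers and the enterocyte against T or NK contrasts kept the library as a block.

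Members and lists were chosen with earlier results of these data known. For each list and class up to 4 called genes were named, by the largest log2 difference among those with a mean of at least 50 CPM in 1 group and no overlap between the libraries, and exceptions are stated; 1 gene that met this rule is not reported here. The 10 genes most like Acta1 and the 5 coding genes on each side of it were named too. Chi-square per degree of freedom was 11.5 to 35.6 between libraries of 1 label, so none were copies. Each library is 1 animal. Intervals and floors (3 counts) cover counting error only, and total depth is given with the results. Alternatives were other scaling, filters, gates, depth cuts, left-out libraries and a replicate block.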

Additional observations from a re-analysis of the deposited data

Results flagged for a closer look

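The genotype effect on the cytoplasmic actins differed between enterocytes and T or NK cells (edgeR interaction term, 3 libraries a group). For Actb the enterocyte effect minus the T or NK effect was -0.59 (SE 0.137, adjusted p = 0.0156), and the call was lost without control replicate 1 or any 1 IE-HuR-/- library. For Actg1 it was 1.14 (SE 0.131, adjusted p = 2.87e-04).

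The rise from the bottom to the top villus tier differed between the genotypes for Actg1, by 0.48 (IE-HuR-/- minus control, SE 0.0443, edgeR adjusted p = 2.74e-14). The same difference was 1.43 for Acta1 (SE 0.0697; 0.79 with 2 tiers in place of 3) and 0.93 for Dstn (SE 0.0447), given without a test because both genes were selected on their genotype difference in these libraries. For these 3 genes every IE-HuR-/- library had a steeper rise than every control library. Tip-marker RNA itself was higher in IE-HuR-/- libraries, at 2334 to 2425 against 1643 to 1792 CPM in the bottom tier and at 21593 to 22808 against 17152 to 18808 CPM in the top tier, and its part in these differences was not tested.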

How the results depend on the processing

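Of 638 alternative values, 564 were graded as the same. A called value then kept its direction and call, and a count of called genes kept a similar size. For the genotype differences of Acta1 and Dstn within a class and for the barcode shares, this grade meant that the size was kept. The enterocyte share of barcodes with Acta1 did not keep it in 4 alternatives in each genotype, nor the T or NK share in 2. The genotype effects of Acta1 and Dstn compared between classes or tiers, given above without a test, were graded by direction and adjusted p like the other genes. A value without a call was graded as the same also where its sign turned, as for Vil1 in T or NK cells (-0.08 to 0.23). In enterocytes 79 of 80 values of the members were graded as the same. The exception was Dstn, whose log2 difference moved from 1.58 to 1.38 without TMM scaling. The replicate numbers did not pair the libraries (correlations of deviations between -0.22 and 0.07), and a replicate block gave 7422 called genes in enterocytes, 2617 in goblet cells, 401 in T or NK cells and 18 in crypt progenitors, against 7513, 2653, 490 and 2. Under that block the difference in the Actb share of -19.7 points had an exact sign-flip p of 0.25, the lowest that 3 pairs allow. DESeq2 called 1760 genes in goblet cells, 296 in T or NK cells and 16 in crypt progenitors. Without a filter on low counts the last 2 classes had 892 and 72 calls, and with at least 5000 UMIs per barcode 219 and 6. With raised gates crypt progenitors had 8 calls. Leaving out 1 library gave 4 to 31 calls in crypt progenitors and 199 to 1237 in T or NK cells, with 1237 without control replicate 3. The genes whose genotype effect differed from enterocytes numbered 865 to 3265 for T or NK cells (2025 with all libraries, and 3265 without control replicate 3) and 337 to 1121 for goblet cells (709 with all; the lowest when IE-HuR-/- replicate 3 was left out, the highest when IE-HuR-/- replicate 2 was). The cause was not tested.

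Among the called values of single members, 1 reversed, Vil1 in the top against the bottom tier of IE-HuR-/- libraries, from 0.30 to -0.10 without TMM scaling. The median of the folding list also turned without it (0.10 to -0.10 in enterocytes, 0.05 to -0.14 in goblet cells), and the split of genes whose tier effect differed turned without IE-HuR-/- replicate 2 or 3 (1850 higher and 968 lower, or 1796 and 938, against 1187 and 1947). The share of enterocyte barcodes with Acta1 followed depth. From 4.67% in control and 65.4% in IE-HuR-/- libraries, it went to 8.14% and 78.5% for barcodes of 500 genes or more with mitochondrial UMIs of 25% or less, to 8.11% and 74.95% with raised gates, to 11.6% and 87.9% with at least 5000 UMIs, and to 1.60% and 51.4% thinned to 1000 UMIs. With raised gates the Actb share in enterocytes differed from goblet, enteroendocrine and erythroid cells by 3.07, 7.79 and -5.62 points, averaged over both genotypes. Each had an adjusted exact sign-flip p of 0.0417 over 4 classes, since B or plasma and myeloid cells then had too few barcodes.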
